A study of Anas platyrhynchos with 3 samples.

Results

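Transcripts of 10 genes that empty, sense, refill and top up the calcium store of the endoplasmic reticulum were measured by RNA sequencing in the skin of the bill of Pekin duck (Anas platyrhynchos). The genes were chosen by symbol, and all 10 were found among the 14938 genes of the table. They encode the 3 inositol trisphosphate (IP3) receptors (ITPR1, ITPR2 and ITPR3), the store sensors STIM1 and STIM2, the entry channels ORAI1 and ORAI2, the store pumps ATP2A2 and ATP2A3, and the surface pump ATP2B1. The skin came from unhatched ducklings at embryonic day 24 to 26, taken once the inner shell membrane had been pierced, 24 to 48 hours ahead of hatching, from eggs kept at 37 °C. The labels give 1 untreated group of 3 biological replicates, and comparisons were therefore made between genes inside each library. Whether a replicate was 1 embryo or a pool is not given in the sources used here, and p-values measure only the spread between these 3 samples.

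Most animal cells keep calcium in the endoplasmic reticulum at a far higher concentration than in the cytosol. Receptors at the cell surface activate phospholipase C, which makes IP3, and IP3 opens the IP3 receptors so that stored calcium leaves. STIM proteins span the store membrane, detect the fall in stored calcium and open ORAI channels in the surface membrane, a route called store-operated calcium entry. Pumps of the SERCA type (ATP2A genes) return calcium to the store, and pumps of the PMCA type (ATP2B genes) expel it from the cell. In human epidermis calcium signals steer keratinocyte differentiation and adhesion, and loss of one copy of ATP2A2 causes Darier disease, a disorder of keratinocyte adhesion.

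Depth was 32247700 reads assigned to genes in replicate 1, 30630039 in replicate 2 and 25268141 in replicate 3. Levels are given in FPKM, which are fragments per kilobase of transcript scaled to library depth, so that genes of different length can be compared. Such comparisons rest on the length assigned to each gene. An error in that length would shift levels, folds, shares and calls alike in all 3 libraries and would not show in the p-values or intervals. Of all genes, 10605 reached 1 FPKM in all 3 libraries, all 10 store genes among them, with a median of 13.3, 13.1 and 13.3 FPKM per library. All 9 measured keratinocyte markers and all 9 measured fibroblast markers were over 1 FPKM in every library, as were all 9 measured Schwann and lamellar cell markers, whereas 4 of 6 sensory neuron markers were under it. The summed FPKM of the fibroblast markers was 3733, 6515 and 3832 in replicates 1, 2 and 3, and that of the keratinocyte markers was 4955, 4244 and 4787, so replicate 2 stood apart as the library highest in fibroblast and lowest in keratinocyte transcripts. Where no library is named, a value is the mean ± SD of the 3 replicates.

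Set among genes that reached 1 FPKM in all 3 libraries, store genes were mostly below the median gene. The pumps ATP2A2 and ATP2B1 were the exceptions. In limma's moderated test of log2(FPKM + 0.1) against the library's median gene, 2 of the 10 were above it and 8 were below it at an adjusted p under 0.05, with Benjamini-Hochberg adjustment over all 10605 genes. Over all genes tested, 43.7% were above and 43.6% were below. The median log2 ratio was -1.14 for the 10 genes and -0.01 for all genes tested. The median level of the 10 was 6.07 FPKM. The place of the median gene depends on the minimum set for inclusion. Without a minimum, ITPR2 lay above the median gene (log2 0.43, adjusted p = 0.0203), and ITPR3 (log2 0.18, adjusted p = 0.0760) and ORAI1 (log2 0.030, adjusted p = 0.801) were no longer called. That left 3 of the 10 above and 5 below, beside 6714 above and 6758 below of all 14938 genes. In whole tissue, fewer cells of a type and less RNA per cell cannot be told apart.

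**Figure D1:**
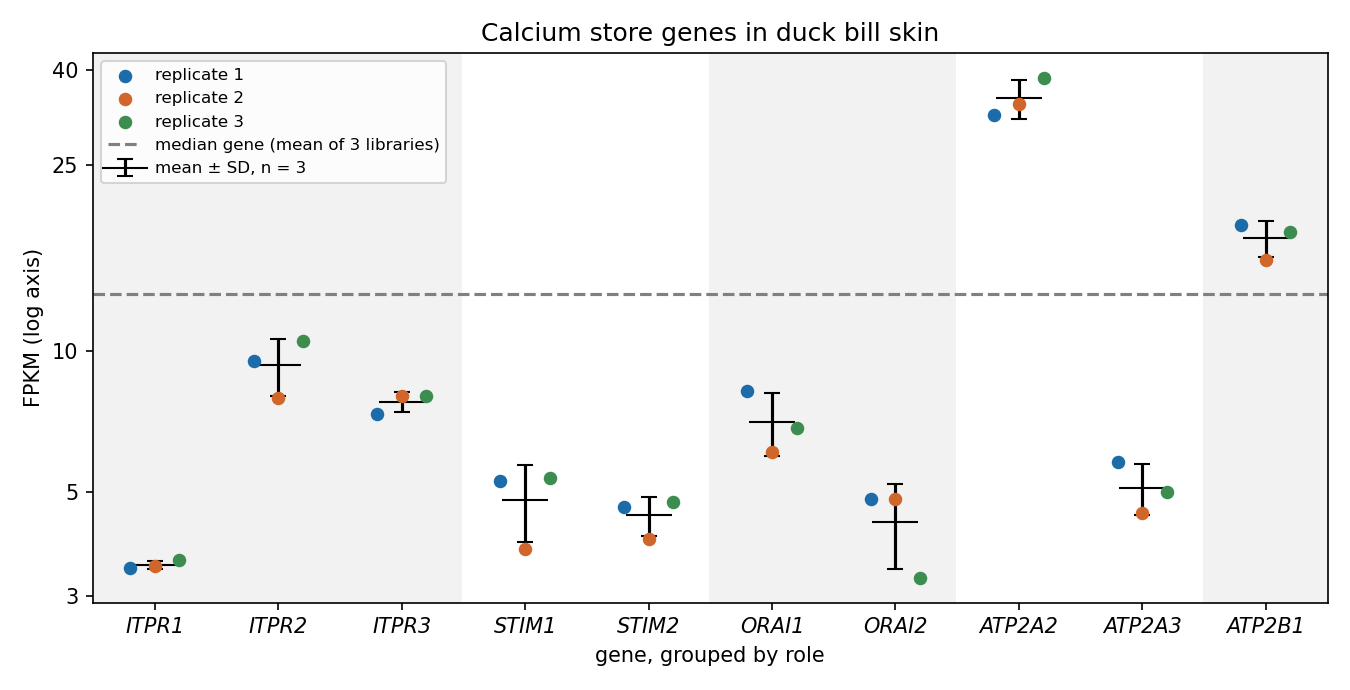
FPKM of the 10 store genes in each library on a log axis, grouped by role (shading), with the mean and SD of 3 replicates as black bars and the median gene as a dashed line. ATP2A2 and ATP2B1 lie above the dashed line in all 3 libraries, and the other 8 genes lie below it in all 3.

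The IP3 receptor genes form the release arm. ITPR2, which encodes a receptor form with high affinity for IP3 in mammals, had 9.55, 7.93 and 10.5 FPKM in replicates 1, 2 and 3, from 3632, 2955 and 3250 reads. ITPR3, the form typical of secretory epithelia in mammals, had 7.34, 8.01 and 8.01 FPKM from 2143, 2289 and 1900 reads. ITPR1, the main form of mammalian neurons, had 3.44, 3.48 and 3.57 FPKM from 1062, 1053 and 897 reads. ITPR1 was thus the lowest of the 3 receptors in every library, its highest value staying under the lowest of the others, whereas the ranges of ITPR2 and ITPR3 overlapped and replicate 2 reversed their order.

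Relative to the median gene, ITPR2 was lower by a log2 ratio of -0.51 ± 0.11 (SE, limma adjusted p = 0.00453), ITPR3 by -0.76 ± 0.09 (adjusted p = 0.000297) and ITPR1 by -1.89 ± 0.09 (adjusted p = 4.56e-06). ITPR1 thus stood 3.71-fold below the median gene. Pairs of store genes were compared by a moderated test of their difference within each library, with the variance prior taken from gene pairs and p-values adjusted over all genes set against the lower gene. In that test ITPR2 was 2.61-fold higher than ITPR1 (95% interval 2.05 to 3.32, adjusted p = 0.000111), and ITPR3 was 2.19-fold higher than ITPR1 (1.76 to 2.73, adjusted p = 0.000183). Against ITPR1, 79.7% of the other 10604 genes tested were called higher. Every share of all genes given below is likewise of genes that reached 1 FPKM in all 3 libraries. ITPR2 was higher than ITPR3 in 2 of 3 libraries with a fold of 1.19 (0.925 to 1.53), and the test did not pass (adjusted p = 0.160), while 58% of all genes were called higher than ITPR3.

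Summed over the 3 receptors, IP3 receptor transcripts reached 20.3, 19.4 and 22.1 FPKM. ITPR2 made up 45.1 ± 3.73% of that sum, ITPR3 37.9 ± 2.92% and ITPR1 17.0 ± 0.879%. The share of ITPR2 was 47.0, 40.9 and 47.6% in replicates 1, 2 and 3, so replicate 2 had the lowest share of ITPR2 and, at 41.2%, the highest share of ITPR3.

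**Figure D2:**
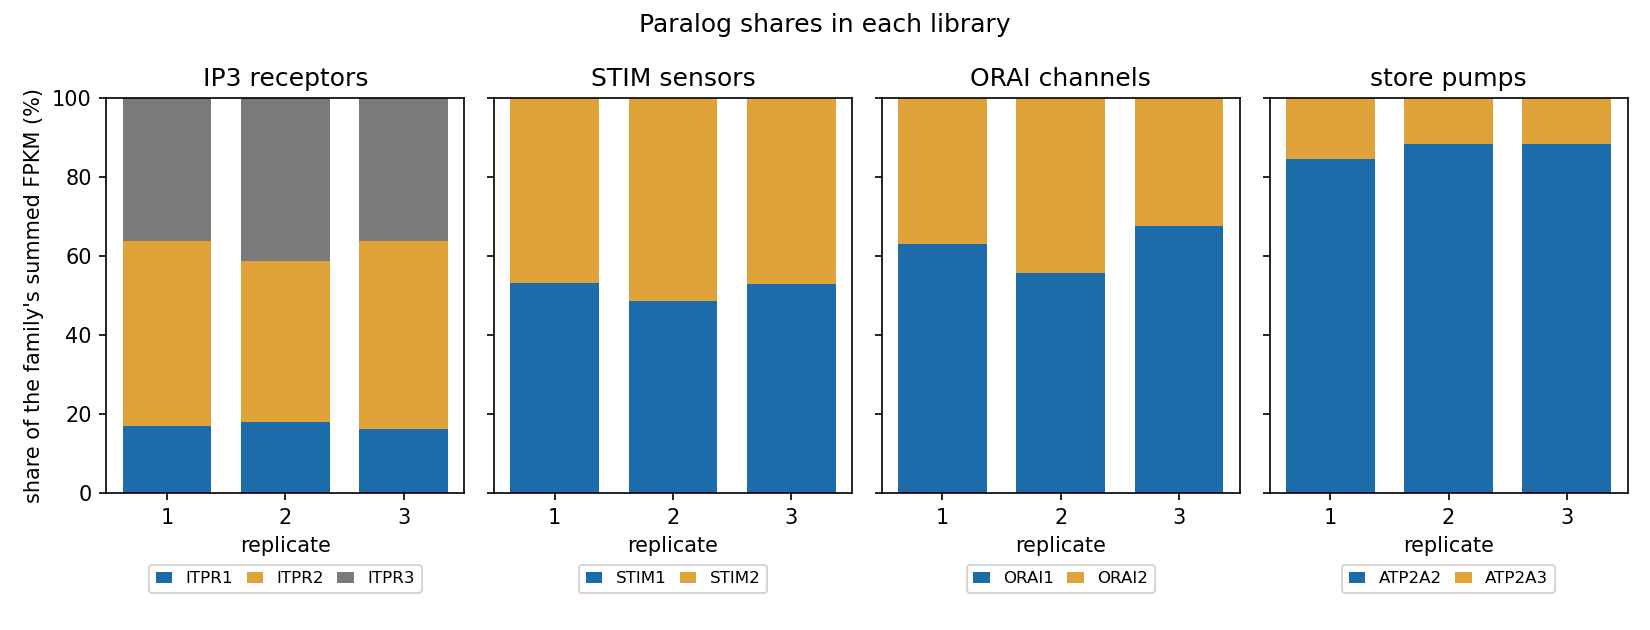
Share of each paralog in the summed FPKM of its family, in percent, for replicates 1 to 3 of the IP3 receptors, STIM sensors, ORAI channels and store pumps. ATP2A2 takes 84.7 to 88.5% of the summed FPKM of ATP2A2 and ATP2A3, whereas the STIM genes split almost evenly. ATP2A1 is not part of the store pump sum.

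The sensors STIM1 and STIM2 were close to each other in level. STIM1, the main activator of store-operated entry, had 5.28, 3.77 and 5.36 FPKM from 655, 458 and 541 reads. STIM2, which in mammals responds to smaller falls in stored calcium, had 4.64, 3.96 and 4.76 FPKM from 1293, 1081 and 1078 reads. Both were lowest in replicate 2, and STIM1 exceeded STIM2 in replicates 1 and 3 but not in replicate 2. The ratio of STIM1 to STIM2 was 1.14, 0.951 and 1.13, a fold of 1.07 with a 95% interval of 0.847 to 1.34, and the pair test did not pass (adjusted p = 0.541), with 74% of all genes called higher than STIM2. STIM1 took 51.6 ± 2.51% of the summed FPKM but 32.3 ± 2.17% of the summed reads, because the length implied by count and FPKM was 3936 bases for STIM1 and 8833 for STIM2. STIM1 was below the median gene by a log2 ratio of -1.46 ± 0.12 (SE, limma adjusted p = 6.17e-05) and STIM2 by -1.55 ± 0.10 (adjusted p = 1.47e-05).

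ORAI1, the pore-forming subunit of the channel that STIM1 opens, was higher than its paralog ORAI2. ORAI1 had 8.20, 6.08 and 6.86 FPKM from 889, 645 and 604 reads. ORAI2, which in mice limits the current when it assembles with ORAI1, had 4.82, 4.82 and 3.28 FPKM from 248, 243 and 137 reads. The 2 sets of values did not overlap, and each gene was set apart by a different library, ORAI1 by a high value in replicate 1 and ORAI2 by a low value in replicate 3. ORAI1 was 1.63-fold higher than ORAI2 (95% interval 1.21 to 2.20, adjusted p = 0.00859), and 74.1% of all genes were called higher than ORAI2. Without replicate 3 the log2 ratio was 0.54 and the pair test did not pass (adjusted p = 0.0627). ORAI1 made up 63.0, 55.7 and 67.7% of the summed ORAI FPKM. Relative to the median gene the log2 ratio was -0.91 ± 0.11 for ORAI1 (SE, limma adjusted p = 0.000330) and -1.62 ± 0.14 for ORAI2 (adjusted p = 6.31e-05).

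ATP2A2 was the highest of the 10 genes. This gene encodes SERCA2, the store pump found in nearly all cell types, and had 32.0, 33.8 and 38.4 FPKM from 9193, 9520 and 8965 reads. It was lowest in replicate 1 and highest in replicate 3, and its lowest value exceeded the highest value of every other store gene. Its mean ranked 2360 among the 10605 genes over the minimum, with 77.7% of them lower. ATP2A2 was 2.60-fold above the median gene (log2 1.38 ± 0.10 SE, limma adjusted p = 2.50e-05).

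ATP2A3 encodes SERCA3, which in mammals is prominent in blood and endothelial cells and in some epithelia. It had 5.78, 4.51 and 5.01 FPKM from 835, 637 and 587 reads, highest in replicate 1 and lowest in replicate 2. ATP2A2 was 6.71-fold higher than ATP2A3 (95% interval 5.17 to 8.72, adjusted p = 8.23e-06), the largest fold of the 14 pairs compared, and 70.6% of all genes were called higher than ATP2A3. ATP2A3 was 2.58-fold below the median gene (log2 -1.37 ± 0.10 SE, limma adjusted p = 3.49e-05). Beside it, the summed FPKM of 6 endothelial markers was 109, 93.4 and 89.2 and that of 8 leukocyte markers was 18.5, 29.8 and 22.7, with 4 of the 8 under the minimum. CD74, the highest of the 8, had 5.40, 14.5 and 5.67 FPKM. Also over the minimum were CD3D (5.6, 6.5 and 6.3 FPKM), LAPTM5 (3.0, 4.5 and 4.9) and BLNK (3.6, 2.7 and 5.1). BLNK was lowest in replicate 2, as ATP2A3 was. Of the 8, 6 were highest in replicate 2 and 2 in replicate 3. PTPRC, among those under the minimum, had 0.315, 0.565 and 0.180 FPKM, and the thrombocyte gene ITGA2B averaged 0.186 ± 0.0284. The part of these cells in the level of ATP2A3 was not tested.

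ATP2B1, the widely expressed pump of the surface membrane, had 18.6, 15.7 and 18.0 FPKM from 3887, 3204 and 3051 reads. Replicate 2 was the lowest, and its value was still above that library's median gene. ATP2B1 was 1.31-fold above the median gene (log2 0.39 ± 0.09 SE, limma adjusted p = 0.00823). With a minimum of 5 FPKM for inclusion it was not called (log2 -0.21, adjusted p = 0.0646). ATP2A2 was 1.99-fold higher than ATP2B1 (1.56 to 2.52, adjusted p = 0.000741), with 33.5% of all genes called higher than ATP2B1, and ATP2B1 was 3.38-fold higher than ATP2A3 (2.71 to 4.22, adjusted p = 2.79e-05).

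**Figure D3:**
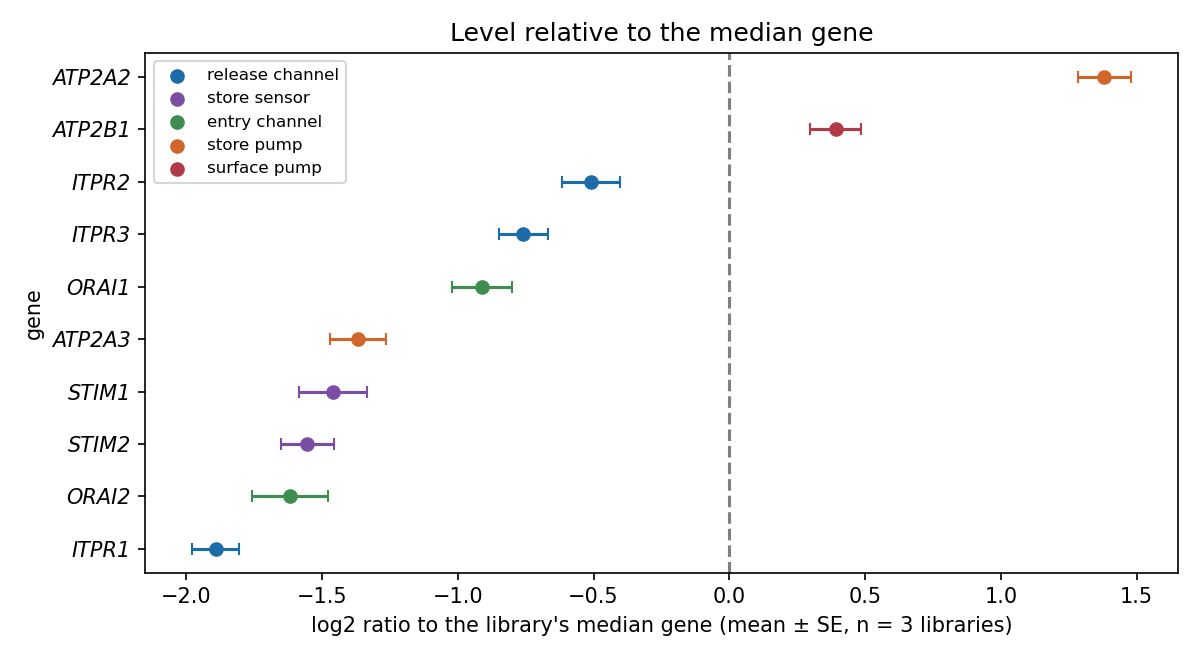
Log2 ratio of each store gene to the library's median gene, mean and SE of 3 libraries, coloured by role, with the median gene at 0. ATP2A2 at 1.38 and ATP2B1 at 0.39 are to the right of 0, and ITPR1 at -1.89 is the farthest to the left.

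In descending order of mean FPKM the genes were ATP2A2 (34.7 ± 3.30), ATP2B1 (17.4 ± 1.55), ITPR2 (9.33 ± 1.31), ITPR3 (7.79 ± 0.385), ORAI1 (7.05 ± 1.08), ATP2A3 (5.10 ± 0.645), STIM1 (4.80 ± 0.898), STIM2 (4.46 ± 0.432), ORAI2 (4.31 ± 0.892) and ITPR1 (3.50 ± 0.0696). The order was taken from these same 3 libraries, so neighbours were close in level by construction and the higher gene was picked from the tested values. The adjustment over all genes does not cover that choice. Of the 9 steps between neighbours in this order, 3 passed the pair test. These were the step from ATP2A2 down to ATP2B1, the step from ATP2B1 down to ITPR2 (1.87-fold, 95% interval 1.49 to 2.34, adjusted p = 0.000892, with 52% of all genes called higher than ITPR2) and the step from ORAI1 down to ATP2A3 (1.37-fold, 1.10 to 1.70, adjusted p = 0.0148). The last of these held in 3 of 3 libraries, with ratios of 1.42, 1.35 and 1.37, but leaving out replicate 1 (log2 0.43, adjusted p = 0.0686) or replicate 3 (log2 0.46, adjusted p = 0.0646) ended the call.

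The other 6 steps did not differ beyond the spread of the libraries. ITPR3 was 1.11-fold ORAI1 (0.850 to 1.45, adjusted p = 0.398), and 60.9% of all genes were called higher than ORAI1. ATP2A3 was 1.07-fold STIM1 (0.841 to 1.36, adjusted p = 0.547), and 71.7% of all genes were called higher than STIM1. STIM2 was 1.05-fold ORAI2 (0.761 to 1.44, adjusted p = 0.758), and ORAI2 was 1.21-fold ITPR1 (0.905 to 1.61, adjusted p = 0.173). The step from ITPR2 to ITPR3 and that from STIM1 to STIM2 are given above. The genes from ATP2A3 down to ITPR1 thus lay between 3.28 and 5.78 FPKM, and no neighbouring pair among them was told apart. Pairs farther apart in this range were not compared, and the values of ATP2A3 (4.51 to 5.78) and ITPR1 (3.44 to 3.57) did not overlap.

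Families were also compared as sums. The 2 store pump genes ATP2A2 and ATP2A3 summed to 37.8, 38.3 and 43.4 FPKM, with ATP2A1 not part of the sum. The ratio of this sum to the summed IP3 receptors was 1.86, 1.97 and 1.96, a mean of 1.93 ± 0.0640. This was the steadiest of the 5 ratios computed. The ratio of the store pumps to the surface pump ATP2B1 was 2.03, 2.44 and 2.41, that to the ORAI genes was 2.90, 3.52 and 4.28, and that to the STIM genes was 3.81, 4.96 and 4.28. The STIM genes summed to 9.92, 7.73 and 10.1 FPKM and the ORAI genes to 13.0, 10.9 and 10.1, so that the ratio of STIM to ORAI was 0.762, 0.709 and 0.999. STIM transcripts were fewer than ORAI transcripts in replicates 1 and 2 and nearly equal to them in replicate 3, the library with the low value of ORAI2. These ratios are of transcripts in whole skin and have no test.

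The libraries differed about as much in the store genes as in other genes. The median SD of log2 values between libraries was 0.16 for the 10 genes and 0.17 for all 10605 genes, and 5 of the 10 lay under the median of all genes. Without replicate 2 the medians were 0.09 for the 10 genes and 0.12 for all genes. They were 0.13 and 0.14 without replicate 1, and 0.17 and 0.15 without replicate 3. The median of all genes thus fell whichever library was left out, and both medians were lowest without replicate 2. ITPR1 had the lowest coefficient of variation, 1.99%, which was under the 3.16% from counting reads alone at its depth. ITPR3 varied by 4.95% and ATP2B1 by 8.91%. ORAI2 at 20.7%, STIM1 at 18.7% and ORAI1 at 15.3% varied most, beside 6.91, 4.26 and 3.75% from counting alone. Spread between biological samples adds to counting error in any gene. The biological coefficient of variation estimated by edgeR was 0.212 for ORAI2, 0.186 for STIM1 and 0.167 for ORAI1, beside a median of 0.157 over all genes. By that estimate ITPR1 was not the lowest, at 0.137 beside 0.129 for ITPR3, 0.133 for ATP2B1 and 0.135 for ATP2A2.

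The direction of this variation was shared by several genes. Replicate 2 held the lowest value of 6 of the 10 genes, ITPR2, STIM1, STIM2, ORAI1, ATP2A3 and ATP2B1, and 36.6% of all genes over the minimum were lowest there. Measured from each gene's own log2 mean, the 10 genes deviated by a median of 0.08, -0.15 and 0.05 in replicates 1, 2 and 3. That of the keratinocyte markers was 0.08, -0.21 and 0.03, with 7 of 9 lowest in replicate 2, and that of the fibroblast markers was -0.20, 0.48 and -0.25, with 9 of 9 highest there. The Schwann and lamellar cell markers, which belong to the cells around the touch endings, deviated by -0.09, 0.16 and -0.08. Skeletal muscle markers followed another order and deviated by 0.69, 0.04 and -0.92, with summed FPKM of 75.8, 46.3 and 21.7 over 4 measured genes. Replicate 3 held the highest value of 6 of the 10 genes, ITPR1, ITPR2, ITPR3, STIM1, STIM2 and ATP2A2. Of all genes over the minimum, 32.9% were highest in replicate 3. ORAI1, ATP2A3 and ATP2B1 were highest in replicate 1, as were 33.1% of all genes over the minimum, and ORAI2 was lowest in replicate 3. Of the 6 genes lowest in replicate 2, STIM1 deviated most there, at -0.32, followed by ITPR2 at -0.22 and ORAI1 at -0.20. ITPR1 at -0.01 and ATP2A2 at -0.03 lay close to their own mean there, and ITPR3 at 0.04 and ORAI2 at 0.18 were above it. The part of the tissue's makeup, muscle included, in these differences was not tested.

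**Figure D4:**
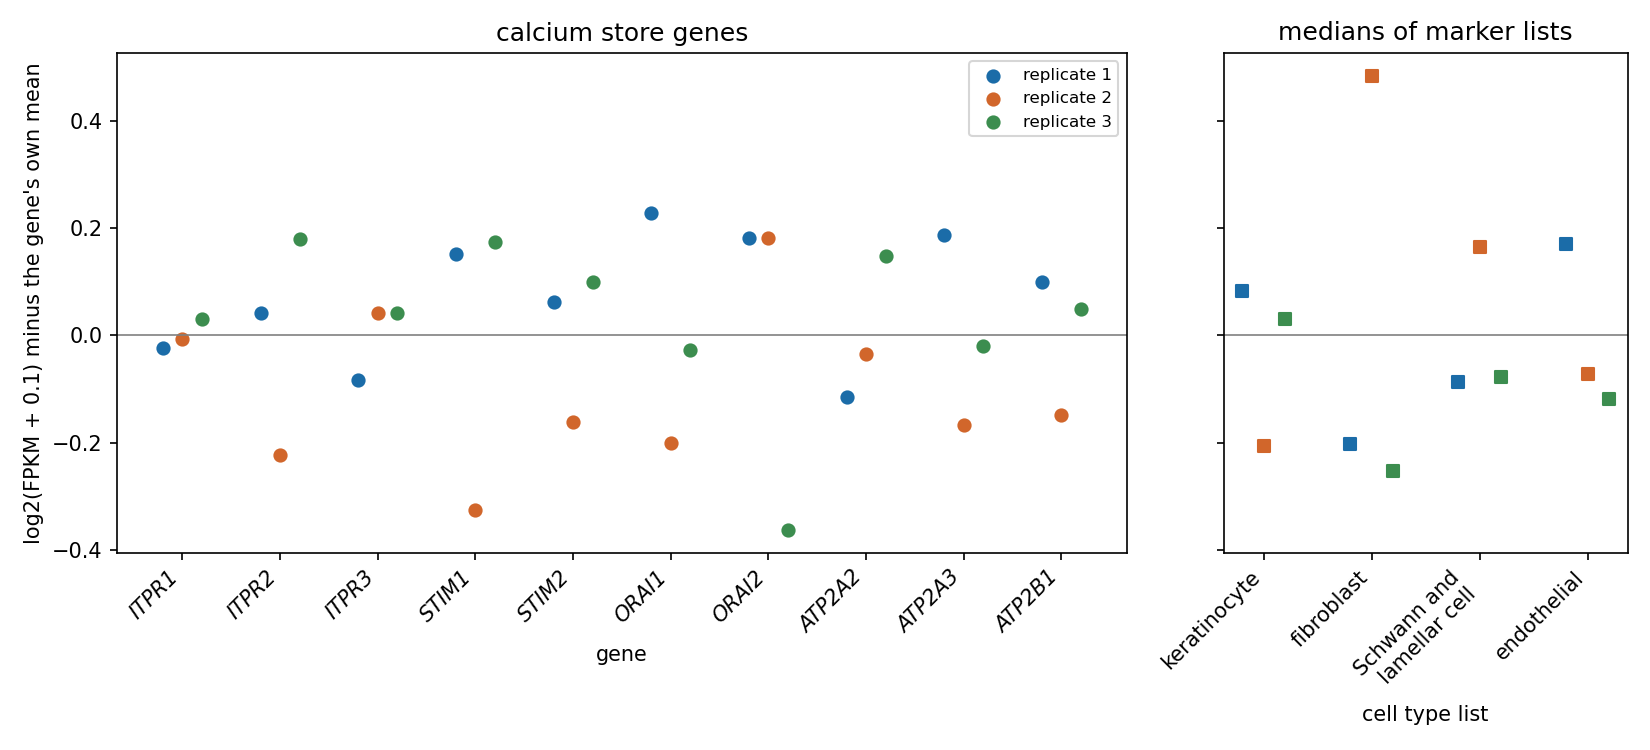
Deviation of log2(FPKM + 0.1) from each gene's own mean in replicates 1 to 3 for the 10 store genes (circles), beside the median deviation of 4 cell type marker lists (squares). Replicate 2 is lowest for 6 store genes and for the keratinocyte list at -0.21, and highest for the fibroblast list at 0.48. Replicate 3 is highest for 6 store genes, while ORAI2 is lowest there at -0.36.

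Other genes of calcium handling were counted from a list of 111 symbols in 8 groups, of which 85 were found and measured. Of these, 65 passed the minimum, 39 lay above the median gene and 21 lay under it. Those were 60% and 32.3% of the genes tested, beside 43.7% and 43.6% of all genes, and groups with 5 to 12 genes tested are small samples to set against these shares. Of the release channels outside the IP3 receptors, 5 were tested, of which 1 (20%) was above the median gene and 3 (60%) were below. The ryanodine receptors measured were low. RYR3, a ryanodine receptor, had 2.27, 1.87 and 2.92 FPKM and was below the median gene (log2 -2.46 ± 0.13 SE, limma adjusted p = 7.96e-06). RYR2, the ryanodine receptor of heart muscle, had 14, 23 and 23 reads, a mean of 0.0430 ± 0.0143 FPKM. RYR1 was looked up by symbol and not found, which says nothing of its transcription. TMCO1, a store membrane protein described as a calcium leak channel, was at 69.9 ± 4.73 FPKM and above the median gene, and TPCN1, a channel of endosomes and lysosomes, was at 12.7 ± 2.09 and not called. TPCN1 was called above without a minimum (log2 0.87, limma adjusted p = 0.00283) and below at 5 FPKM (log2 -0.67, adjusted p = 0.00116).

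Among the other pumps and exchangers, 5 of 7 measured genes were tested. Of these, 2 (40%) lay above the median gene and 3 (60%) lay below, beside 43.7% and 43.6% of all genes. The Golgi pump ATP2C1, whose loss in humans causes the skin blistering of Hailey-Hailey disease, had 33.4, 25.7 and 33.1 FPKM, lowest in replicate 2 as ATP2B1 was. It was above the median gene (log2 1.20 ± 0.11 SE, limma adjusted p = 8.61e-05). The Golgi ion transporter TMEM165 was at 42.8 ± 4.19 FPKM. ATP2B2, a surface pump of sensory hair cells and neurons in mammals, was at 2.52 ± 0.0940, well under ATP2B1, and the sodium-calcium exchanger SLC8A1 at 0.679 ± 0.0254 was under the minimum. ATP2A1, ATP2B4 and ORAI3 were looked up by symbol and not found, which says nothing of their transcription. The store pump and ORAI sums therefore lack ATP2A1 and ORAI3.

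Of 10 measured partners of store entry, 5 were under the minimum. Of the 5 tested, 3 (60%) were above the median gene and 1 (20%) was below it, beside 43.7% and 43.6% of all genes. SARAF, which turns STIM1 off again, had 44.0, 44.5 and 39.6 FPKM, higher than either STIM gene in every library, and was 3.21-fold above the median gene (log2 1.68 ± 0.09 SE, limma adjusted p = 9.26e-06). UBQLN1, which encodes a shuttle protein for ubiquitin-tagged cargo, was at 39.7 ± 5.69 FPKM. TRPC1, a channel reported to take part in store entry in mammals, had 18.7, 14.5 and 10.4 FPKM and was not called against the median gene. It was called above without a minimum (log2 1.03, limma adjusted p = 0.00820) and below at a minimum of 5 FPKM (log2 -0.51, adjusted p = 0.0230). TRPC7 had at most 1 read per library, and 3 reads in the shallowest library would give 0.0237 FPKM.

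The calcium buffers and chaperones inside the store were the group with the highest median level. It was 71.5 FPKM over 11 measured genes of 17 listed, CALR not being among those found by symbol. All 9 that passed the minimum were above the median gene, led by the chaperones HSP90B1 at 174 ± 20.0 and HSPA5 at 159 ± 19.6 FPKM, while CALR3 had at most 1 read. These are general folding proteins of the endoplasmic reticulum as well as calcium binders. Of 15 measured regulators of pumps and channels, 10 were tested. Of these, 6 (60%) were above and 3 (30%) below, beside 43.7% and 43.6% of all genes. The highest were the receptor-binding protein FKBP1A at 266 ± 40.6 and the surface pump partner BSG at 140 ± 24.0 FPKM. IRAG2, which binds IP3 receptors, was at 0.142 ± 0.0345. PLN, the phospholamban gene whose product restrains SERCA2 in heart muscle, had 2.12, 0.721 and 1.13 FPKM and was picked out after its values were seen. It was highest in replicate 1, where the skeletal muscle markers were highest too. PLN was lowest in replicate 2, as was TNNT3 with 173, 0 and 3 reads, whereas MYL1, ACTA1 and TNNC2 were lowest in replicate 3. The 2 measured smooth muscle markers went another way, with summed FPKM of 76.0, 99.7 and 89.9, lowest in replicate 1. The part of muscle of either kind in the level of PLN was not tested.

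Of 16 measured genes for making and removing IP3, 12 were tested. Of these, 4 (33.3%) lay above the median gene and 7 (58.3%) lay below, beside 43.7% and 43.6% of all genes. PLCD1, a phospholipase C active in mouse skin and hair follicles, had 86.0, 74.4 and 86.9 FPKM and was 6.18-fold above the median gene (log2 2.63 ± 0.09 SE, limma adjusted p = 2.03e-06). INPP5A, which removes IP3, was at 37.0 ± 3.40 FPKM. Mitochondrial calcium uptake genes passed the minimum in 10 of 10 cases, with 9 above the median gene and 1 below, including the uniporter pore MCU at 27.8 ± 2.84, the outer membrane channels VDAC2 at 121 ± 9.73 and VDAC3 at 107 ± 3.29, and MICU3 at 5.71 ± 0.591 FPKM as the lowest. Of 10 downstream sensors, 9 were tested, and 5 (55.6%) were above and 3 (33.3%) below. The calmodulin gene CALM2 was at the top at 554 ± 97.0 FPKM. The extracellular calcium receptor CASR had 9, 9 and 3 reads, a mean of 0.0342 ± 0.0146 FPKM.

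**Figure D5:**
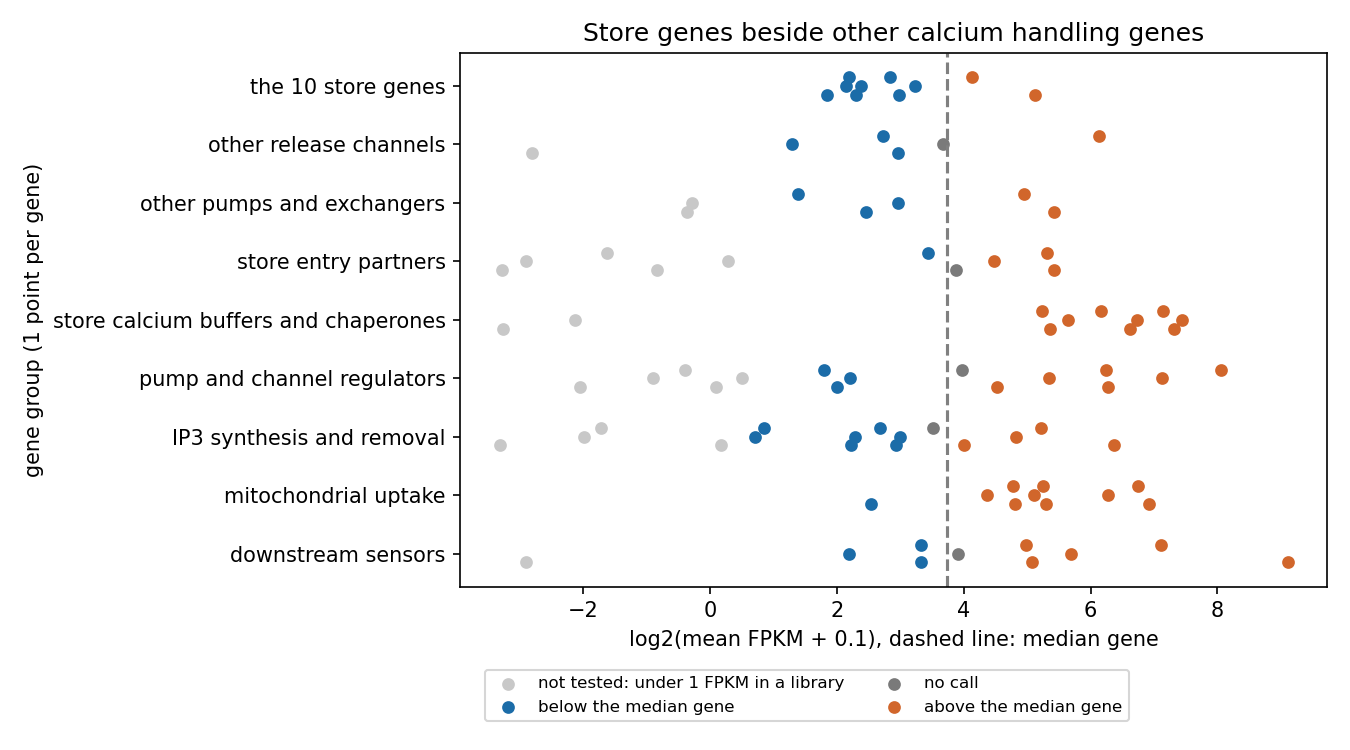
Log2 of mean FPKM plus 0.1 for the 10 store genes (top row) and for 85 other genes of calcium handling in 8 groups, coloured by the call against the median gene (dashed line). The store genes form a band to the left of the line with ATP2B1 and ATP2A2 to the right, while the buffers and chaperones that were tested all lie to the right.

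For each store gene the symbol-bearing gene closest in level was taken as the gene with the smallest largest difference in log2(FPKM + 0.1) over the 3 libraries. These were ZBTB24 for ITPR1 (largest difference 0.04), TTC3 for ITPR2 (0.03), FAM105A for ITPR3 (0.03), MOB1B for STIM1 (0.06), GPRC5C for STIM2 (0.04), PLIN5 for ORAI1 (0.02), ARF5 for ORAI2 (0.09), WAPL for ATP2A2 (0.03), KLHL4 for ATP2A3 (0.03) and TAB3 for ATP2B1 (0.03). With 3 libraries, closeness in level says nothing of shared function or control.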

How the data were processed

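Per the labels' protocols, libraries kept strand (KAPA mRNA Hyper Prep) and were made from poly(A) RNA of about 200 ng total RNA. The deposited table gives a raw count and an FPKM value for each gene and library, per the file headers. Tools named by the submitters' processing notes, with no role stated, are STAR 2.5.4b, Trimmomatic 0.36, edgeR 3.22.3, CASAVA 1.8.2 and, from Subread 1.6.2, featureCounts. No genome build, annotation or strand setting of the counting is given in the sources used here, so reads of overlapping antisense genes may be included. With edgeR's TMM factors (0.978, 1.008 and 1.014), the length implied by count and FPKM was whole within 0.01 bases for 100% of 14343 genes with reads, so FPKM carry TMM scaling.

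Each gene was compared with the library's median gene by limma 3.58.1 in R 4.3.3 on log2(FPKM + 0.1), two-sided, over genes that reached 1 FPKM in every library. Folds of low genes are understated on this scale. For pairs, the variance prior came from disjoint gene pairs neighbouring in mean level (4.04 degrees of freedom). The 14 pairs were the 9 neighbours in level and all 8 pairs within families, 3 being both. Both tests were tried on simulated counts drawn independently for each gene. Such counts lack shifts shared between genes, and nothing here rests on them. Symbols for 730 of 3347 identifiers without a symbol came from the gene table of the IASCAAS_PekinDuck_T2T assembly. They were in place wherever genes were looked up by symbol. Named were all members and, of each pathway group, the 2 highest genes, the lowest and a preset few; some results this rule names are left out of the text. The members and lists were chosen with earlier results of these data known. Alternatives covered the pseudocount, the minimum, edgeR 4.0.16 on the counts, DESeq2 1.42.0 size factors, the variance prior and leaving out each replicate. Python 3.11.15 with matplotlib 3.10.9 drew the figures.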

Additional observations from a re-analysis of the deposited data

How the results depend on the processing

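The split of 2 store genes above and 8 below the median gene was the same with a pseudocount of 1 or 0.01, in edgeR's quasi-likelihood test on the counts, with DESeq2 size factors and without any 1 replicate. It changed with the minimum, whose construction moves the median gene. Without a minimum 3 were above and 5 below, beside 6714 and 6758 of all 14938 genes, and ITPR2 (log2 0.43), ITPR3 (0.18), ORAI1 (0.030) and TPCN1 (0.87) changed sign. At a minimum of 5 FPKM 1 was above and 3 below, since members under it drop out. Of all genes kept there, 3365 were above and 3360 below, and ATP2B1 (-0.21) and TRPC1 (-0.51) changed sign. TRPC1 and TPCN1, not called at a minimum of 1 FPKM, were called above without a minimum and below at 5 FPKM. The median SD of the 10 genes was 0.09 to 0.17 on the log2 scale without any 1 replicate, against 0.16 with all, and that of all genes, added after seeing the data, was 0.12 to 0.15. Of the 14 pairs 8 differed, and 6 to 8 did without any 1 replicate. Without division by length, the shares were 51.3% for ITPR2, 67.7% for STIM2, 77.4% for ORAI1 and 93.1% for ATP2A2, against 45.1, 48.4, 62.1 and 87.1% with it. Samples could not be paired between groups because there is 1 group. At the lowest depth 3 reads make 0.0718 FPKM for ORAI2, the shortest of the 10.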
